A study of Ischnura elegans with 24 samples.

Results

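The 100 contigs described here had a lower level after rearing at 24 °C than at 20 °C in each of 6 populations of the blue-tailed damselfly, Ischnura elegans. A contig is a stretch of transcript assembled from the reads. Counts were expressed as CPM, the reads of a contig relative to its library's total, scaled by edgeR's TMM factors, and the response of a contig in a population was its mean log2(CPM + 1) at 24 °C minus that at 20 °C. Of 34095 contigs, 12096 were counted in all 24 libraries with a mean of 5 CPM or more and were eligible. All 6 responses lay below 0 in 561 of them, and 501 of these also had a southern-minus-northern difference at 20 °C between -0.3 and 0.3. The 100 contigs whose weakest response lay farthest below 0 were taken. The responses and the 20 °C difference therefore chose the contigs, and for these quantities the values below are a description without a test.

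The study reared male larvae from 3 northern and 3 southern populations one by one, from hatching to the final larval stage, at 20 °C or 24 °C. RNA from whole bodies was pooled from 3 larvae, and each population and temperature gave 2 pools, named a and b, so that 72 larvae made 24 libraries. The 4 groups of 6 libraries were northern larvae at 20 °C, northern larvae at 24 °C, southern larvae at 20 °C and southern larvae at 24 °C. All larvae were labelled F0 and fed Artemia nauplii, and the study asked how the response to mild warming differs between latitudes. Pools of a population are separate larvae, but they share their origin. In tests that give each population its own level, p-values measure the spread left between pools. This spread includes differences in response between populations of a latitude. In the test of latitude at 24 °C, p-values measure the spread between the 3 populations of a latitude.

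Insects take the temperature of their surroundings, and a larva raised in warmer water develops and metabolises faster. A lasting change in transcript level under a rearing temperature is a form of phenotypic plasticity, and populations along a latitudinal gradient can differ in it. In a whole-body library a lower level can come from fewer cells of a type or from less RNA per cell, and these cannot be told apart. The files pair no contig with a gene name, and none of the 34095 identifiers matched the gene table of this species, so contigs are given by identifier without a function. Nor could the tissue be checked against marker genes.

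Library totals ran from 12061616 to 17157615 counts. The first 2 principal components of the eligible contigs held 23.4% and 14.4% of the variance, and pool a of northern population 2 at 24 °C lay apart on the second at -64.6, with the next library at -21.4. Without that pool, 86 of the 100 contigs were still chosen. TMM factors averaged 1.03 and 0.888 in northern larvae at 20 °C and 24 °C, and 1.08 and 1.02 in southern larvae. Without scaling, the median response of all eligible contigs was -0.18 in northern and -0.07 in southern larvae, and the choice kept 47 of the 100. All 6 responses of all 100 remained below 0, which is a description, since these responses chose the contigs.

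The 100 contigs came from 96 Trinity genes, Trinity's groups of contigs that share sequence. They were moderately abundant, with mean levels from 5.09 to 311 CPM and a median of 18.2 CPM, beside 18.5 CPM over all eligible contigs. Single counts in a library ranged from 5 to 5972, with a median of 256. Together they held 0.42% of raw counts in northern larvae at 20 °C and 0.286% at 24 °C, and 0.445% and 0.353% in southern larvae.

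Their summed level ran from 3934 to 4348 CPM in northern larvae at 20 °C, with a median of 4094 CPM. At 24 °C it ran from 3051 to 3427 CPM, with a median of 3212 CPM. In southern larvae it ran from 3958 to 4224 CPM at 20 °C and from 3289 to 3721 CPM at 24 °C, with medians of 4134 and 3427 CPM. At both latitudes the highest 24 °C library thus lay below the lowest 20 °C library. The contigs were chosen on these libraries, so this separation is a description. The mean sum was 21.2% lower at 24 °C in northern larvae (4089 ± 150.5 against 3221 ± 134 CPM, SD, n = 6) and 16.1% lower in southern larvae (4116 ± 109.5 against 3452 ± 150.2 CPM, SD, n = 6).

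Most of the contigs moved by a small amount. The mean response over the 6 populations ranged from -1.77 to -0.15 on the log2(CPM + 1) scale. Only 4 contigs lay below -1, 12 lay between -1 and -0.5, 45 between -0.5 and -0.25, and 39 above -0.25. The median was -0.28, a fall of 17.8% in CPM + 1. At the border of the choice, the weakest response was -0.1029 for TRINITY_DN69031_c0_g1_i2 and -0.1028 for TRINITY_DN281146_c0_g1_i2, the last 2 chosen. It was -0.1022 for TRINITY_DN122813_c0_g1_i1 and -0.1013 for TRINITY_DN19657_c3_g2_i1, the first 2 not chosen. The contigs just inside and just outside were thus nearly equal.

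**Figure D1:**
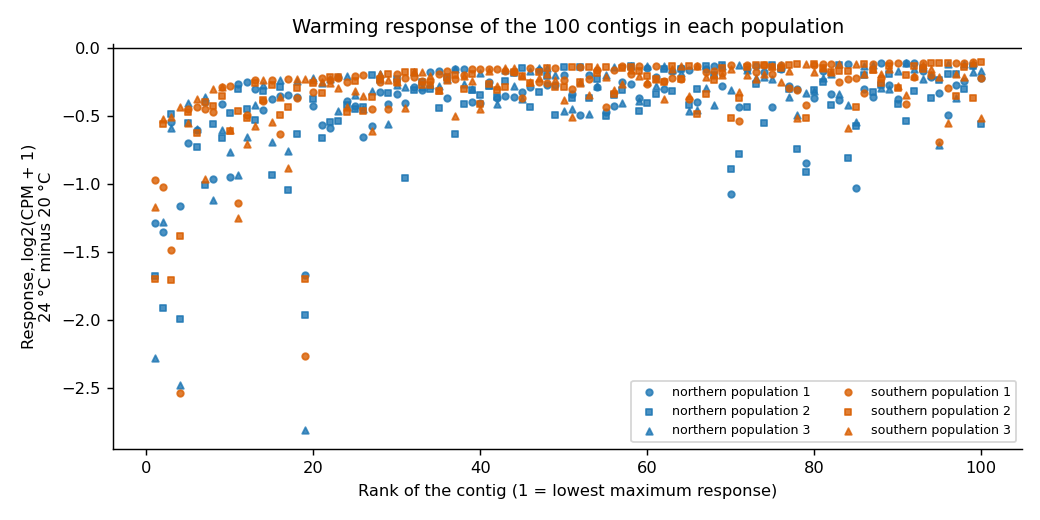
Response of each of the 100 contigs in each population, as mean log2(CPM + 1) at 24 °C minus that at 20 °C, against the contig's rank by its weakest response. Every point lies below 0 because the choice asked for it; responses beyond -1 in most populations are held by the contigs of ranks 1, 2, 4 and 19.

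In all, 4 contigs had mean responses below -1. Among them, TRINITY_DN124722_c1_g6_i1 and TRINITY_DN8437_c0_g3_i1 shared a pattern over the pools, as described below. TRINITY_DN129315_c0_g1_i1, ranked first, had 4.75 to 20.6 CPM in northern larvae at 20 °C (median 8.24) and 1.35 to 2.6 CPM at 24 °C (median 2.36). In southern larvae it had 5.45 to 14.6 CPM at 20 °C (median 9.5) and 1.49 to 6.39 CPM at 24 °C (median 3.22). The groups did not overlap in the north. In the south a single library, population 1 pool a at 24 °C with 6.39 CPM, lay above the lowest 20 °C pool. Its weakest response, -0.97 in southern population 1, was the lowest maximum among the 100.

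TRINITY_DN224631_c0_g4_i1 was more abundant. It had 29.7 to 62.7 CPM in northern larvae at 20 °C (median 45) and 9.62 to 26.5 CPM at 24 °C (median 15.6). In southern larvae the ranges were 33.4 to 49.3 CPM (median 38.4) and 17.2 to 35.7 CPM (median 23.1). Northern pools separated fully by temperature, while in the south pool b of population 2 at 24 °C, with 35.7 CPM, reached into the 20 °C range. The mean northern response was -1.51 and the mean southern response -0.70.

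TRINITY_DN124722_c1_g6_i1, ranked 19, had the lowest mean response of the 100, at -1.77, and the 20 °C pools fell far apart. In northern larvae at 20 °C the pools had 10.1 and 45.5 CPM (population 1, pools a and b), 8.78 and 70.1 CPM (population 2), and 41 and 48.5 CPM (population 3). In southern larvae at 20 °C they had 59.4 and 57.5 CPM, 8.88 and 75.3 CPM, and 9.64 and 15.4 CPM in the same order. At 24 °C all 12 pools lay between 5.38 and 15.1 CPM. At 20 °C 7 pools, with 41 to 75.3 CPM, were thus far above every 24 °C pool, and the other 5 were within or near the 24 °C range. The response was weakest, at -0.22, in southern population 3, where neither 20 °C pool was high.

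TRINITY_DN8437_c0_g3_i1 had the same high and low pools. At 20 °C the low pools had 1.42 and 2.33 CPM (pool a of northern populations 1 and 2), 2.29 CPM (pool a of southern population 2), and 2.41 and 4.23 CPM (southern population 3). The other 7 pools at 20 °C had 8.35 to 21.6 CPM, and the 12 pools at 24 °C had 0.471 to 2.81 CPM. Over the 12 differences between pool a and pool b of a population and temperature, which the choice did not use, the log2(CPM + 1) differences of both contigs had a Pearson correlation of 0.962. These differences share libraries and depth, and the correlation is a description.

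The same pools were high in a contig that was not among the 100. TRINITY_DN124722_c1_g3_i1 belongs to the same Trinity component as TRINITY_DN124722_c1_g6_i1 (a component is the assembly graph above the gene) and was singled out after its values were seen. It had 2.03 to 3.54 CPM in the 5 low pools at 20 °C, 8.03 to 22.7 CPM in the 7 high pools and 0.66 to 3.98 CPM at 24 °C. Its mean response was -1.56, with all 6 responses below 0, and its southern-minus-northern difference at 20 °C, 0.31, was just past the limit.

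TRINITY_DN7069_c2_g1_i1, ranked 3, was variable at both temperatures. It had 1.12 to 15.7 CPM in northern larvae at 20 °C (median 11.1) and 2.96 to 12.1 CPM at 24 °C (median 5.59). In southern larvae it had 2.86 to 26.7 CPM at 20 °C (median 11.4) and 1.02 to 7.62 CPM at 24 °C (median 3.57). The temperatures overlapped at both latitudes. Its southern response, -1.23, was 2.3 times its northern one, -0.54, the largest such ratio of the 100. The smallest, 0.349, was that of TRINITY_DN123581_c0_g2_i1, with a southern response of -0.26 and a northern one of -0.76.

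**Figure D2:**
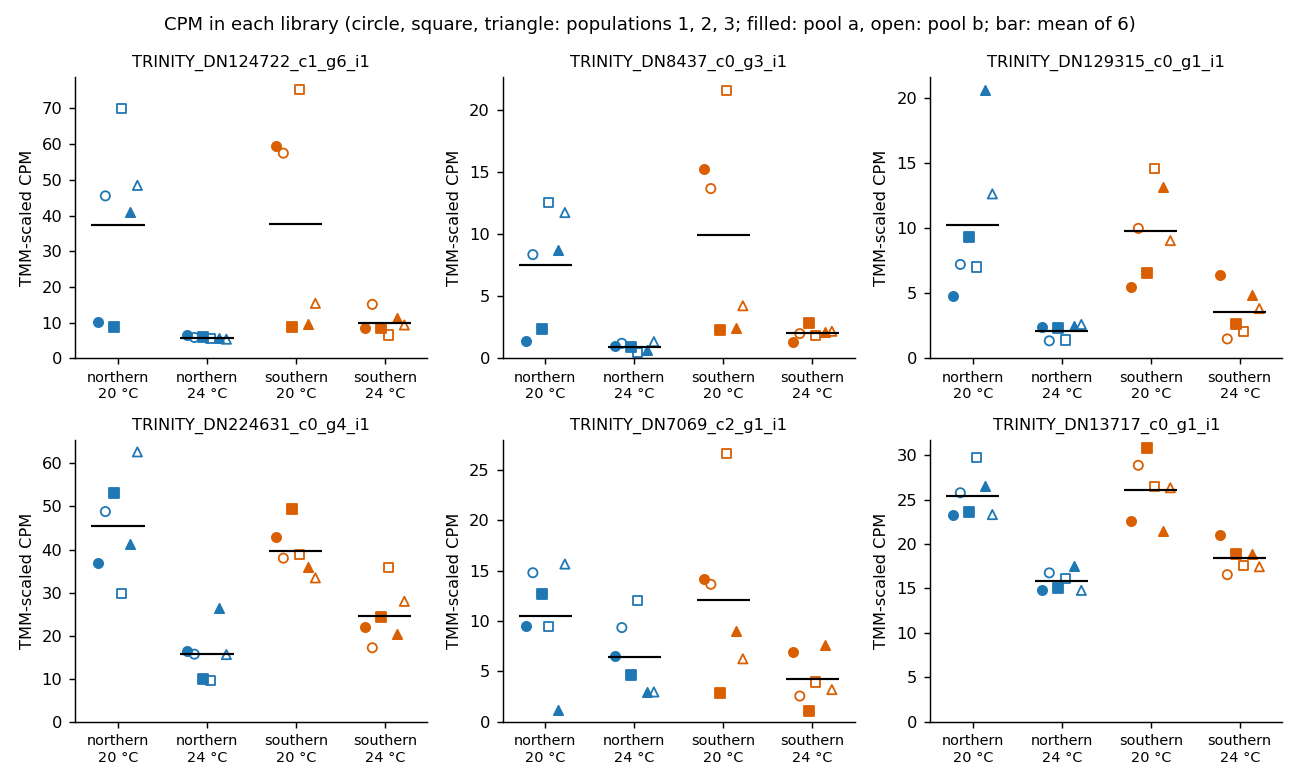
TMM-scaled CPM of 6 contigs in each of the 24 libraries, by latitude and temperature; circles, squares and triangles are populations 1, 2 and 3, filled symbols pool a, open symbols pool b, and bars the means of 6 libraries. The 20 °C pools of the first 2 contigs split into 7 high and 5 low ones, whereas TRINITY_DN13717_c0_g1_i1 had every 24 °C pool below every 20 °C pool.

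Other contigs had smaller responses but steadier pools. In 4 of the 100 every 24 °C library lay below every 20 °C library over both latitudes. These were the only 4 of the 12096 eligible contigs (0.0331%) of which this held. The choice used these libraries, so this count is a description. TRINITY_DN13717_c0_g1_i1 had 23.2 to 29.7 CPM in northern and 21.5 to 30.9 CPM in southern larvae at 20 °C, and 14.8 to 17.6 and 16.6 to 21.1 CPM at 24 °C. TRINITY_DN173612_c0_g1_i2 had 203.3 to 226.1 and 205.4 to 244.1 CPM at 20 °C, and 121.8 to 167.8 and 165.8 to 188.2 CPM at 24 °C. For both, the southern 24 °C median was nearer to the 20 °C range than the northern one, though the latitudes overlapped at 24 °C. These medians were 18.2 and 15.6 CPM for the first and 176.1 and 142.1 CPM for the second.

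TRINITY_DN124198_c1_g1_i1 and TRINITY_DN122565_c0_g1_i2 also belonged to these 4. The former had 6.42 to 8.66 CPM over all 12 libraries at 20 °C and 3.22 to 5.93 CPM at 24 °C, with medians of 4.8 and 4.98 CPM for northern and southern larvae at 24 °C. The latter had 25.5 to 29.5 CPM at 20 °C and 18.9 to 25.4 CPM at 24 °C, so its ranges nearly met. Within a latitude, TRINITY_DN193415_c0_g1_i1 and TRINITY_DN69143_c0_g1_i5 also had no overlap in either. Since the choice used these libraries, 24 °C pools below 20 °C pools without overlap in northern larvae (25 of the 100, beside 0.711% of eligible contigs) and in southern larvae (16 of the 100, beside 0.455%) are printed without a reading. The same holds for contigs called lower at 24 °C at an adjusted p under 0.05 by edgeR's quasi-likelihood test, 25 in northern larvae (0.214% of all tested) and 2 in southern larvae (0.0192%). Without the population block these edgeR counts were 22 and 0, beside 190 and 0 of 31287 contigs called in either direction. With northern population 2 left out they were 4 and 0, beside 24 and 26 of 32066.

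At the ends of the abundance range, TRINITY_DN7353_c0_g1_i1 was the most abundant. It had 309.4 to 369.5 CPM in northern larvae at 20 °C and 229.2 to 289.1 CPM at 24 °C, with medians of 332.5 and 274.4 CPM. In southern larvae its 24 °C pools reached from 266 to 344.9 CPM (median 293.4) and overlapped the 20 °C range of 317.8 to 359.2 CPM (median 347.6). TRINITY_DN177168_c0_g1_i1, the least abundant, averaged 5.64 and 4.37 CPM in northern and 5.71 and 4.64 CPM in southern larvae at 20 °C and 24 °C.

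Responses are given next by latitude, as a description, since they chose the contigs. Median responses were -0.33, -0.34 and -0.28 in northern populations 1 to 3, and -0.22, -0.24 and -0.23 in southern populations 1 to 3. Averaged within a latitude, the median was -0.31 in northern larvae, a fall of 19.5% in CPM + 1, and -0.24 in southern larvae, a fall of 15.4%, beside 0.02 and 0.01 over all eligible contigs. The southern response was weaker in 81 of the 100 and stronger in 19, and the median ratio of southern to northern was 0.74. The strongest of the 6 responses was northern in 82 contigs, most often in northern population 2 with 40, and the weakest was southern in 66. Without pool a of northern population 2 at 24 °C, which lay apart, the southern response was weaker in 73 of the 100. Without that population it was weaker in 72, and without any other population in 74 to 84. Over all eligible contigs the southern response was the higher one in 49%. Among the 561 contigs with 6 responses below 0, the southern response was weaker in 424, or 75.6%. Responses of all eligible contigs were also spread unequally: their 5th percentiles were -0.51, -0.57 and -0.42 in northern populations 1 to 3 and -0.44, -0.40 and -0.47 in southern populations 1 to 3.

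**Figure D3:**
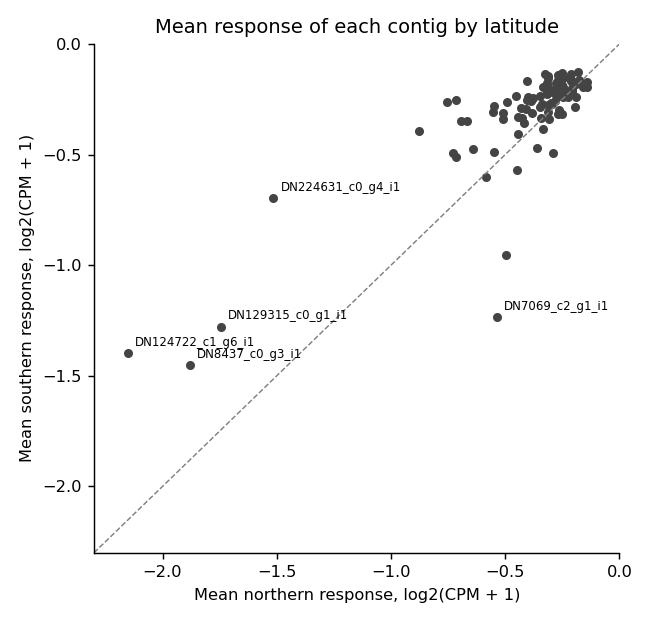
Mean northern response against mean southern response of each of the 100 contigs, in log2(CPM + 1), with a dashed line where both are equal. Points above the line, 81 of 100, responded more weakly in southern larvae; the 5 contigs with the lowest mean responses are named.

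The difference between the latitudes' responses was fitted contig by contig over the whole table. It is built from the 6 responses that chose the contigs, so the counts among the 100 are printed without a reading. Of the 31287 contigs tested with edgeR's quasi-likelihood test, 8 (0.0256%) had an adjusted p under 0.05, 1 of them among the 12094 eligible contigs tested (0.00827%), and none of the 100 did. At an unadjusted p under 0.05 there were 5 of the 100, beside 5.17% of all contigs tested and 5.07% of eligible ones. DESeq2, at an adjusted p under 0.05, called none of the 100, beside 15 of 31287 contigs. The smallest edgeR p belonged to TRINITY_DN224631_c0_g4_i1, whose southern response was higher by 0.88 ± 0.258 (edgeR log2 difference ± SE). The contigs share libraries, and the count of weaker southern responses has no test.

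At 24 °C 78 of the 100 contigs were higher in southern than in northern larvae, with a median difference of 0.12 in log2(CPM + 1), beside 52.5% and 0.01 over all eligible contigs. At 20 °C, where the choice limited the difference, 54 were higher and the median difference was 0.015. The difference at 24 °C is the difference at 20 °C plus the difference in response, so it partly restates the weaker southern responses. The median difference in response was 0.071, southern minus northern. The 24 °C levels entered the choice, so the counts among the 100 are again a description. Tested over pool sums with the 3 populations of a latitude as replicates, 155 of all contigs (0.495%) differed at 24 °C at an edgeR adjusted p under 0.05, 107 of the eligible ones (0.885%) and none of the 100. At an unadjusted p under 0.05 edgeR gave 15 of the 100, beside 14.3% of all contigs tested and 19.4% of eligible ones. DESeq2, at an adjusted p under 0.05, called 1 of the 100, beside 1449 of 31287 contigs. The smallest edgeR p was that of TRINITY_DN124722_c1_g6_i1, higher in southern larvae by 0.77 ± 0.185 (edgeR log2 difference ± SE). Its northern pools at 24 °C had 5.38 to 6.44 CPM and its southern ones 6.57 to 15.1 CPM, without overlap. All southern pools lay above all northern pools at 24 °C in 5 of the 100 (2.6% of eligible contigs) and below them in 0 of the 100 (3.27% of eligible contigs), and nothing is read from these counts.

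Differences among populations of a latitude did not enter the choice, but the choice left out contigs not counted in every library. The shares called are therefore given also over the 12094 eligible contigs that were tested. Among the northern populations 217 of all contigs (0.694%) differed at an edgeR adjusted p under 0.05, 45 of the eligible ones (0.372%) and none of the 100. At an unadjusted p under 0.05 edgeR gave 14 of the 100, beside 12.8% of all contigs and 13.6% of eligible ones. DESeq2, at an adjusted p under 0.05, called 2 of the 100, beside 537 of 31287 contigs. Among the southern populations 34 of all contigs (0.109%) were called by edgeR, 2 of the eligible ones (0.0165%) and none of the 100. There edgeR gave 11 of the 100 at an unadjusted p under 0.05, beside 7.13% of all contigs and 6.52% of eligible ones. DESeq2, at an adjusted p under 0.05, called 0 of the 100, beside 106 of 31287 contigs.

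The contigs with the smallest p in these tests varied moderately. TRINITY_DN81777_c0_g1_i1 had, in pools a and b at 20 °C, 10.4 and 9.56 CPM in northern population 1, 12.8 and 13.4 CPM in population 2, and 14 and 16.3 CPM in population 3. At 24 °C it had 7.93 and 7.94, 6.47 and 8.48, and 9.53 and 11.5 CPM. Population 3 was highest at both temperatures, and the fitted levels of the 3 populations spanned 0.49 (edgeR log2 scale, edgeR adjusted p = 0.152). TRINITY_DN280489_c1_g1_i1 spanned 0.52 over the southern populations (edgeR log2 scale, edgeR adjusted p = 0.274). It was highest in southern population 1, with 26.9 and 27.2 CPM at 20 °C and 23.8 and 17.6 CPM at 24 °C. In southern population 3 it had 20.6 and 15.3 CPM at 20 °C and 17.2 and 13 CPM at 24 °C.

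How such a list behaves in larvae it was not chosen on was read by leaving populations out. The choice was repeated on 5 populations, giving 100 contigs, and their responses were read in the sixth. Northern populations 1, 2 and 3, when left out, had 81, 86 and 83 of 100 responses below 0, beside 47.8%, 45.4% and 49% of eligible contigs. Southern populations 1, 2 and 3 had 84, 86 and 76 of 100, beside 48.6%, 45.8% and 51%. In each left-out population most of the list was thus lower at 24 °C. In all, 496 of 600 responses over 287 distinct contigs were below 0; the 6 lists overlap and share libraries, so no test was made.

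The median left-out responses were smaller in size in the southern populations. Each median is of its own list, so the contigs differ as well as the larvae. The medians were -0.26, -0.30 and -0.23 in the northern populations left out and -0.14, -0.18 and -0.20 in the southern ones, whereas in the 5 populations that chose each list the medians lay between -0.28 and -0.31. The left-out northern population 2 was the exception in that its median was below that of the populations that chose the list, -0.28. The 6 lists held between 56 and 76 of the 100 contigs. Of the 100, 43 were in all 6 lists and 11 in none.

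**Figure D4:**
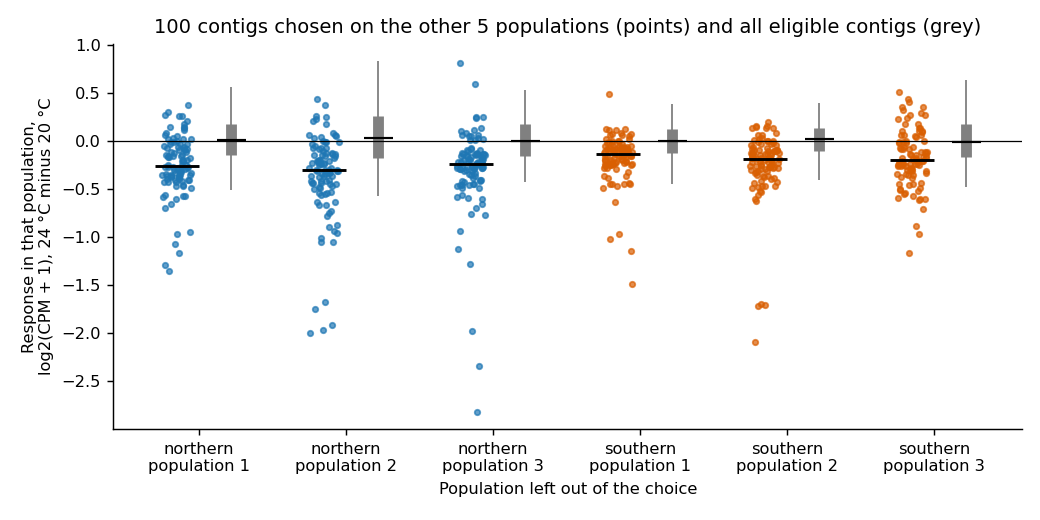
Response in log2(CPM + 1) in each population of the 100 contigs chosen on the other 5 (points, black line at the median), beside all eligible contigs (grey box from the lower to the upper quartile, thin line from the 5th to the 95th percentile). Between 76 and 86 of the 100 points lie below 0 in each population.

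The pools were also exchanged, so that each response rested on 1 pool a temperature, from the same 6 populations that chose the list. A list of 100 taken from pool a alone had a median response of -0.28 in pool a and of -0.18 in pool b. In pool b all 6 responses were below 0 for 32 of them, beside 3.71% of eligible contigs, and 436 of 600 responses were below 0, beside 48.6%. For the list taken from pool b, the median went from -0.30 to -0.18 in pool a, with 28 of 100 contigs below 0 in all populations, beside 3.02%, and 464 of 600 responses, beside 47.9%. Most contigs of a list from 1 set of pools thus did not repeat in all 6 populations in the other set, although most single responses lay below 0. These lists held 33 and 39 of the 100 contigs.

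Between the pools of a population and temperature, the contigs were compared by their differences. The median size of the difference between pools was 0.16 in log2(CPM + 1), beside 0.19 over all eligible contigs. The mean Pearson correlation between 2 of the 100 contigs over the 12 pool differences was 0.0845, beside 0.0036 between eligible contigs. Of 4950 pairs 3 exceeded 0.9 (0.0606%, beside 0.047% of eligible pairs). One was the pair of TRINITY_DN124722_c1_g6_i1 and TRINITY_DN8437_c0_g3_i1 described above. Another was TRINITY_DN6637_c0_g1_i3 and TRINITY_DN6637_c0_g1_i4, contigs of 1 Trinity gene, at 0.968. The third was TRINITY_DN290327_c0_g1_i1 and TRINITY_DN286950_c0_g1_i1, at 0.91; these pairs were singled out after their values were seen. In northern population 1 the 100 contigs were on average lower in pool a than in pool b at both temperatures, by -0.17 at 20 °C and -0.15 at 24 °C, beside 0.03 and 0.02 over eligible contigs. They were higher in pool a by 0.11 in southern population 1 at 24 °C, where 67 of the 100 were above 0, and differed by -0.12 in southern population 2 at 20 °C, beside 0.02 and -0.03 over eligible contigs. In the other 8 pairs of pools the mean difference lay between -0.09 and 0.04.

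The Trinity genes of the 100 held further contigs, and reads of contigs in 1 gene can be shared or split by the counting. Of the 100, 27 were in genes of several contigs, beside 23.9% of eligible contigs. There were 34 other contigs in 21 of these genes. Of these, 19 were eligible, and all 19 had a mean response below 0, beside 46.2% of eligible contigs, with a median of -0.23; 13 had all 6 responses below 0. Summed over all its contigs, the gene had 6 responses below 0 in 20 of the 21 cases, but these sums include the chosen contig, which held over 50% of the gene's counts in 11 of them. The exception was TRINITY_DN69143_c0_g1, at 0.001 in southern population 2.

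TRINITY_DN226666_c0_g1 held most of the 100, with 3 of its 6 contigs, which took 49.9% of its counts. TRINITY_DN226666_c0_g1_i4, TRINITY_DN226666_c0_g1_i12 and TRINITY_DN226666_c0_g1_i1 averaged 7.01, 6.91 and 6.49 CPM in northern larvae at 20 °C and 5.09, 4.64 and 4.73 CPM at 24 °C. In southern larvae they averaged 7.35, 6.33 and 6.17 CPM at 20 °C and 5.84, 5.15 and 5.02 CPM at 24 °C. In each the northern pools did not overlap between temperatures and the southern ones did. The other 3 contigs had mean responses of -0.23, -0.38 and -0.33, and the gene's sum had -0.38.

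Sister contigs also differed from the chosen ones. TRINITY_DN224720_c0_g1_i1, the most abundant sister at 113.7 CPM, had a mean response of -0.28 and a response of -0.01 in northern population 2, which kept it out; the chosen contig of that gene held 4.63% of its counts. TRINITY_DN7163_c0_g1_i4 had the mean response nearest to 0 among eligible sisters, at -0.16. Below the limit on abundance, TRINITY_DN7069_c2_g1_i3, singled out after its values were seen, had a mean response of 0.20 and was below 0 in 1 population, while TRINITY_DN7069_c2_g1_i1 had -0.89. Contigs of other genes in the same Trinity components numbered 27, of which 6 were eligible. Of these 6, 5 had a mean response below 0, and TRINITY_DN124722_c1_g3_i1 alone had all 6 responses below 0. Among those that were not eligible, some had all 6 responses below 0 and others did not.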

How the data were processed

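Whole-body RNA of pooled male larvae was sequenced as paired-end reads with a TruSeq kit on a HiSeq, per the labels' protocols. The deposited table holds whole-number read counts per contig, as made by the authors; the submitters' processing notes name FastQC 0.11.5, Trimmomatic 0.36 and featureCounts of Subread 1.5.1, and the assembly is known only by its Trinity identifiers. Every deposited contig exceeded 1 CPM in at least 2 libraries. No 2 libraries were identical, and pools differed by more than sampling noise (chi-square per degree of freedom 13.2 to 66.2). Depth limits the least abundant contigs.

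From the counts, CPM with TMM factors (edgeR 4.0.16, R 4.3.3) and log2(CPM + 1) were computed. Contigs passing filterByExpr (minimum count 10, total 15) were tested with edgeR's quasi-likelihood F test (robust), with Benjamini-Hochberg adjustment over all 31287, an intercept for each population and a temperature effect for each latitude. Latitude at 24 °C was tested on counts summed over pools. The population is the block that both temperatures share, from the labels; deviations of same-population pools correlated between temperatures at -0.0369 to 0.263. DESeq2 1.42.0, other scalings, filters and omissions were the alternatives.

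The 100 contigs, the lists and the tests were chosen with earlier results of these data known. Contigs named in the text are the 6 with the lowest maximum response, those at the border, at the ends of abundance and of the latitude ratio, those with the smallest p, those of the Trinity gene with most members, and 2 sisters; others were singled out after their values were seen.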

Additional observations from a re-analysis of the deposited data

How the results depend on the processing

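The set of contigs depended on the scaling and on single populations: 47 of the 100 were chosen without scaling factors and 56 to 76 with a population left out, while between 70 and 99 were chosen under the other settings, including 86 without pool a of northern population 2 at 24 °C. All 100 kept 6 responses below 0 under RLE factors, no scaling and median centring. Those responses chose the contigs, and scaling moves all contigs of a library together, so this is a description. The southern response was weaker in 72 to 95 of the 100 under all alternatives, some of them chosen after seeing the data. The contigs were chosen on these responses, so this range is a description. The 95 was without scaling, where the median response of all eligible contigs was -0.18 in northern and -0.07 in southern larvae.

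Of the 100 contigs, the latitude difference at 24 °C was called in 4 with single libraries taken as independent (1159 of 31287 tested). DESeq2 called it in 1 of the 100, beside 1449 of 31287 contigs. Differences among northern populations were called in 0 to 1 with a population or library left out. The 1 was without northern population 2, beside 487 of 32066 contigs tested. DESeq2 called 2 of the 100, beside 537 of 31287 contigs. The northern warming effect, called in 25, was called in 48 by DESeq2 and in 4 to 18 with a population or library left out (northern populations 1, 2 and 3 gave 10, 4 and 5; southern populations 1 and 2 gave 12 and 15; pool a of northern population 2 at 24 °C gave 15). The southern effect, called in 2, was called in 7 by DESeq2. It was called in 1 without the filter, 0 without contigs at 0 in 10 or more libraries and 0 with no replicate block. With omissions it was called in 0 to 4. It was called in 4 without that pool, 1 without northern population 3 or southern population 1, and 0 without any other population. The choice used both warming effects, so their counts are printed without a reading. Counts over all contigs under the same settings are given next.

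Over all contigs, the latitude difference at 24 °C numbered 501 without the filter, 1159 with single libraries, 1449 by DESeq2 and 38 to 310 with a population or library left out. The difference in response numbered 0 without contigs at 0 in 10 or more libraries, 0 with no replicate block, 15 by DESeq2 and 0 to 16 with omissions. Northern populations gave 58, 537 and 39 to 487 (zeros removed, DESeq2, omissions), and southern populations 1, 106 and 0 to 64. Counted in either direction, the warming effect was called by the main edgeR fit in 175 contigs in northern and 33 in southern larvae. The northern effect gave 807 by DESeq2 and 24 to 150 with omissions. The southern one gave 18 without the filter, 1 without contigs at 0 and 0 with no replicate block. It gave 57 by DESeq2 and 0 to 34 with omissions. The causes were not tested. Depth limits the contigs near 5 CPM, whose lowest count in a library was 5.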
